A study of Mus musculus with 12 samples.

Results

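Afp, H19, Igf2, Gpc3, Dlk1 and Igf2bp3 are genes that the fetal mouse liver transcribes strongly and the adult liver keeps low. The 6 genes were taken by their GENCODE M21 symbols from a table of 54232 Ensembl gene IDs, and each symbol had 1 ID. Their reads were compared between pair-fed (PF) and alcohol-fed (AF) livers of an alcohol-associated steatohepatitis (ASH) model. All mice were male C57BL6/J animals without a transgene, with an age labelled 8-week. The 5 PF mice received an isocaloric high-fat liquid diet for 8 weeks. The 7 AF mice received the high-fat liquid diet with ethanol by the intragastric route, up to 27 g/kg/day, with a weekly binge of 5 g/kg, and according to the methods of the study also ate a solid diet rich in cholesterol and saturated fat, so ethanol and diet components that differ between the groups cannot be told apart. Each library is taken to be the whole liver of 1 mouse. In such bulk RNA fewer cells of a type and less RNA per cell cannot be told apart.

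Alpha-fetoprotein (Afp) is the main plasma protein of the fetal liver and is silenced after birth by the repressors Zhx2 and Zbtb20. H19 is a maternally expressed non-coding RNA that carries a microRNA in its first exon, and its paternally expressed neighbour Igf2 encodes the fetal growth factor IGF2. Gpc3 is a cell-surface heparan sulfate proteoglycan, Dlk1 a paternally expressed transmembrane protein of hepatoblasts, and Igf2bp3 an RNA-binding protein of fetal tissues. Afp and Gpc3 are used as markers of hepatocellular carcinoma, and several of these genes can be transcribed again in injured or regenerating adult liver.

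Between 24129900 and 30578639 reads were counted on genes per library, so 3 reads, the limit that a count of 0 allows, corresponded to 0.118 to 0.148 CPM (counts scaled to a common library size per 1e6 reads) in PF and 0.0778 to 0.115 CPM in AF livers, for counting error only. CPM were scaled with TMM factors of 0.832 to 0.901 in PF and 0.880 to 1.36 in AF libraries, and AF mice 6 and 7 had the lowest factors of their group, 0.880 and 0.960. Hepatocyte markers were abundant in every library, with summed levels of 106300 to 155100 CPM in PF and 52900 to 118300 CPM in AF livers.

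Of the 6 genes, 4 (H19, Igf2bp3, Gpc3 and Afp) passed the filter on low counts, and 2 of them, H19 and Igf2bp3, were higher in AF livers past an adjusted p of 0.05 in edgeR's quasi-likelihood test. Only Afp reached the filter's minimum in all 5 PF libraries. H19 reached it in 2 and Igf2bp3 in 0 PF libraries, where 5 of all 12 were needed, so both entered the test through AF livers in which they were high and their calls are no support for the count. Without the filter both were still called (edgeR adjusted p = 0.0043 and 0.0014). Over all 14168 genes tested, 39.8% passed this threshold in either direction, 22.0% were higher and 17.8% lower in AF. With only 4 members tested, a count of 2 against this background is not a result about the members as a group. Without TMM scaling, the median log2 fold change over all tested genes moved from 0.04 to 0.40 and the calls split into 6458 higher and 938 lower, against 3116 and 2519 with TMM.

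H19 rose and reached the highest level of the members. Its locus, chr7:142575529-142578143 on the minus strand (GRCm38, ENSMUSG00000000031, lincRNA), gave levels of 1.03, 0.229, 0.417, 0.315 and 0.317 CPM in PF mice 1 to 5. AF mice 1 to 7 had 126, 3.50, 25.7, 29.4, 9.89, 0.335 and 0.457 CPM. AF mice 1 to 5 lay above every PF liver, whereas AF mice 6 and 7 lay inside the PF range. The PF mean was 0.462 ± 0.326 CPM (SD, n = 5) and the AF mean 27.9 ± 45.0 CPM (SD, n = 7), with a log2 fold change of 5.94 (SE 1.46, 95% confidence interval 2.79 to 9.09, edgeR adjusted p = 0.0068).

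The highest AF liver exceeded the lowest by 377-fold for H19, and AF mouse 1 held 68.5% of all H19 reads of its group. Without it, the AF mean was 11.6 ± 12.9 CPM (n = 6), and H19 kept a log2 fold change of 4.66 with an edgeR adjusted p of 0.0080. The exact two-sided permutation test of the mean log2 CPM over all arrangements of the livers gave p = 0.0253 for a difference of 3.86. That p is not adjusted for the 6 members tested in this way. With limma-voom H19 missed the threshold (log2 fold change 4.21, adjusted p = 0.227).

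**Figure D1:**
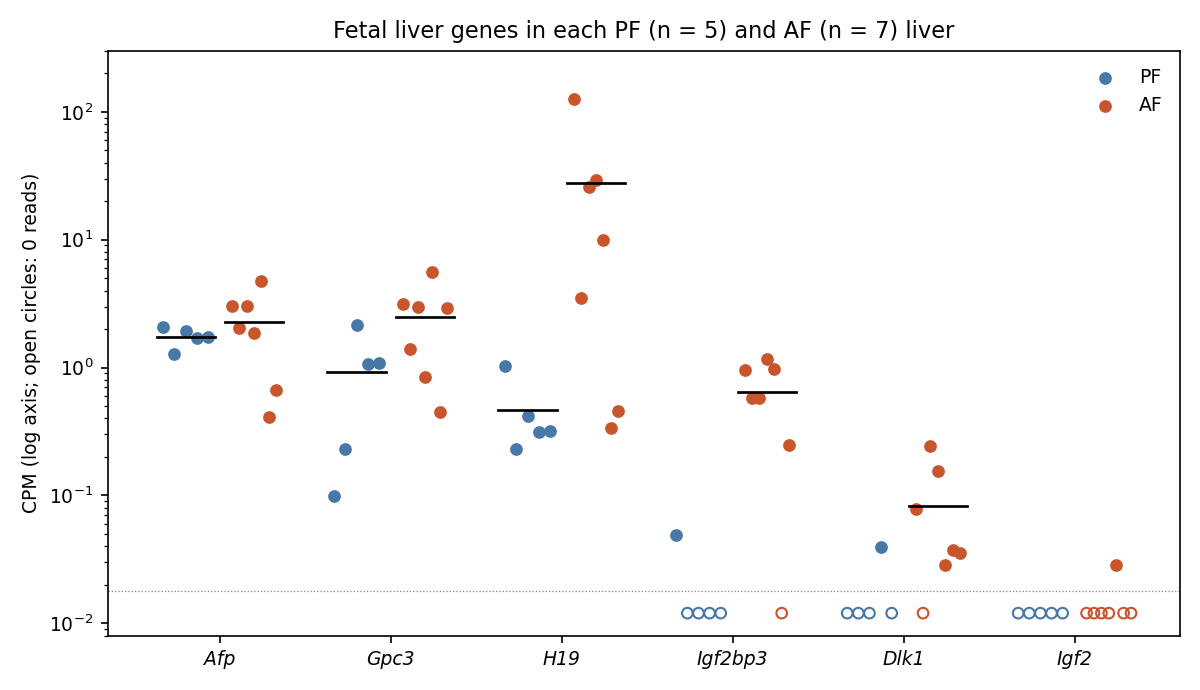
CPM of each member (log axis) in 5 PF and 7 AF livers, 1 point per liver, with open circles in the lane under the dotted line for livers with 0 reads and a black bar for the group mean where it lies above that line. H19 reached 126 CPM in AF mouse 1 and stayed at 0.335 and 0.457 CPM in AF mice 6 and 7.

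The microRNA gene Mir675 lies in an exon of H19 and takes 84 bases of its 2460 exon bases. Its mature products are shown because they are the known processed RNAs of H19. They are given 5′ to 3′ from RefSeq (GRCm38.p6, minus strand) with the seed, bases 2 to 8, in capitals, at chr7:142577112-142577133 for the 5p and chr7:142577078-142577099 for the 3p arm.
miR-675-5p: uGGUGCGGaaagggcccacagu
miR-675-3p: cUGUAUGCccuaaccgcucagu
The 2 arms have different seeds. No read was counted on Mir675 in any library, while H19 had 7170 reads over all libraries. Poly(A)-selected libraries do not measure mature microRNAs, and how reads in the shared 84 bases were assigned is not given in the sources used here, so these zeros are not a level of miR-675.

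Igf2, the paternally expressed partner of H19 whose annotated span begins 72622 bases beyond that of H19 (chr7:142650766-142666816, minus strand, ENSMUSG00000048583), had 0 reads in all 5 PF livers and 1 read in the 7 AF livers, in AF mouse 5. A PF count of 0 allows up to 0.0264 CPM over the summed PF libraries. No fold change is given here, because 1 AF read against 0 PF reads measures none, and the gene did not pass the filter. Of its 5723 annotated exon bases, 3596 are shared with Gm49394, a gene model on the same strand that also had 0 reads, and a counting rule that drops reads shared by several genes would leave only the remaining bases for Igf2. Whether such a rule was applied here was not tested. AF mouse 1, with 4873 H19 reads, had 0 Igf2 reads.

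Igf2bp3 (IMP3), at chr6:49085223-49214957 on the minus strand (ENSMUSG00000029814), was nearly absent from PF livers. PF mouse 1 had 1 read and PF mice 2 to 5 had 0. AF mice 1 to 7 had 37, 15, 19, 37, 34, 0 and 7 reads, which is 0.959, 0.577, 0.577, 1.16, 0.969, 0 and 0.246 CPM. Reads were present in 6 of 7 AF livers, each above the highest PF value of 0.0492 CPM, and absent from AF mouse 6.

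Summed over livers, the ratio of AF to PF Igf2bp3 reads per effective library size was 77.1. Its exact binomial 95% interval was 13.6 to 3064, for counting error only. Leaving out any 1 AF liver gave ratios of 67.8 to 87.8. The only PF read lay in PF mouse 1, so without that library no ratio can be given. The fitted log2 fold change was then 7.22, against 5.61 with all libraries. The edgeR adjusted p was 0.0019, and the exact permutation p, not adjusted for the 6 members, was 0.0114. Igf2bp3 passed the filter only through its AF reads, and without any one of AF mice 1 to 5 it was not tested. Its exons share 1529 of 8159 bases with Malsu1 on the opposite strand, which had 1405 reads in PF and 2489 in AF livers, and the strand setting of the counting is not given in the sources used here.

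Gpc3 (chrX:52272426-52613950, minus strand, ENSMUSG00000055653) varied in both groups. Levels were 0.0984, 0.229, 2.17, 1.06 and 1.09 CPM in PF mice 1 to 5. AF livers ranged from 0.447 in AF mouse 6 to 5.59 CPM in AF mouse 5, with a median of 2.92. In 4 of 7 AF livers Gpc3 was above every PF liver, and none lay below the PF range. Means were 0.928 ± 0.830 (SD, n = 5) and 2.46 ± 1.76 CPM (SD, n = 7), and the log2 fold change of 1.40 (SE 0.68, 95% confidence interval -0.06 to 2.85) missed the threshold (edgeR adjusted p = 0.115, exact permutation p = 0.0808).

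Afp (chr5:90490737-90508907, plus strand, ENSMUSG00000054932) was low in adult liver and did not pass the test. PF livers were close together at 2.07, 1.28, 1.92, 1.69 and 1.72 CPM in mice 1 to 5. AF livers ranged from 0.410 to 4.76 CPM with a median of 2.04. They fell on both sides of the PF livers, with AF mice 1, 3 and 5 above the highest of them at 3.01, 3.01 and 4.76 CPM and AF mice 6 and 7 below the lowest at 0.410 and 0.668 CPM. The mean was 1.74 ± 0.297 CPM in PF (SD, n = 5) and 2.25 ± 1.50 CPM in AF livers (SD, n = 7). A log2 fold change of 0.38 (SE 0.47, 95% confidence interval -0.62 to 1.39) had an edgeR adjusted p of 0.534, and the difference in mean log2 CPM was 0.03 (exact permutation p = 0.948).

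Dlk1 (chr12:109452823-109463336, plus strand, ENSMUSG00000040856) had 1 read in the PF livers, in PF mouse 4. AF mice 1 to 7 had 3, 0, 8, 5, 1, 1 and 1 reads. Only AF mice 1, 3 and 4 were above the highest PF liver. The ratio of summed reads was 9.83 (exact binomial 95% interval 1.56 to 408, counting error only), and without AF mouse 3 it was 6.69 (0.973 to 288). Dlk1 did not pass the filter, and the exact permutation p, also unadjusted, was 0.0644.

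Per kilobase of exon, the PF order of mean levels was Afp (0.515 CPM per kb), Gpc3 (0.345), H19 (0.188), Dlk1 (0.00139), Igf2bp3 (0.00121) and Igf2 (0). Neighbouring PF ranges overlapped for Afp and Gpc3 and for Gpc3 and H19, and Dlk1 and Igf2bp3 rested on 1 read each. In AF livers the order was H19 (11.4 CPM per kb), Gpc3 (0.916), Afp (0.669), Igf2bp3 (0.0786), Dlk1 (0.0146) and Igf2 (0.000712). AF ranges of each neighbouring pair overlapped, so the AF order of means is not an order of every liver.

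**Figure D2:**
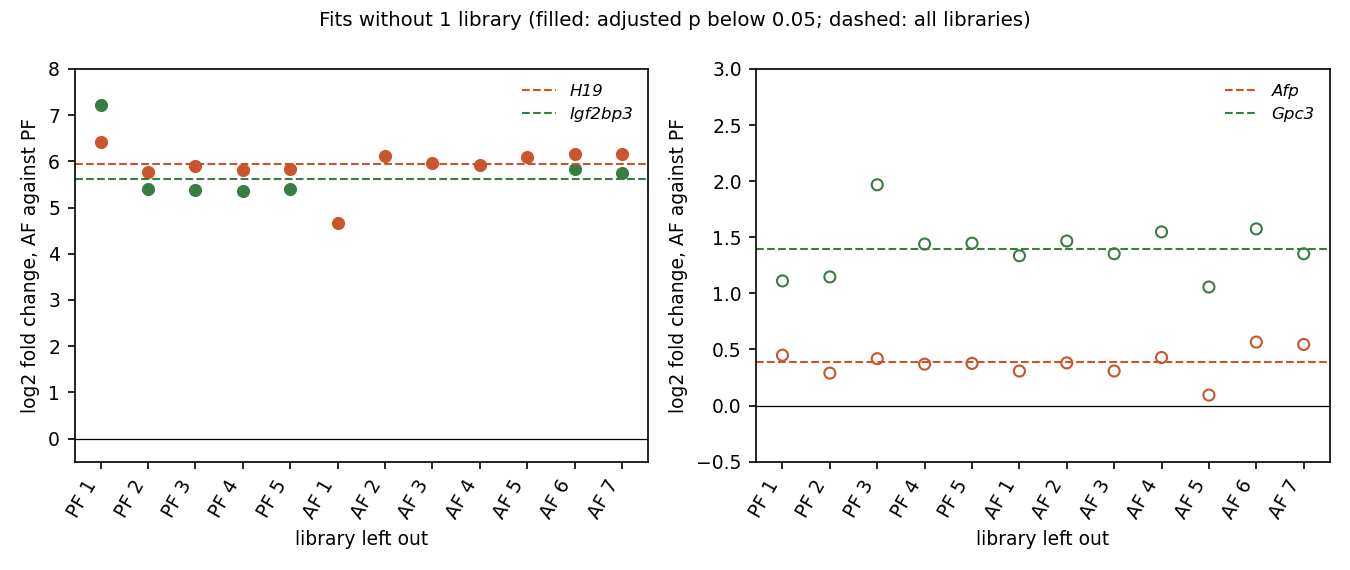
Log2 fold change of AF against PF (y axis) in fits without 1 library (x axis) for the 4 tested members, with a dashed line at the value from all libraries and filled points where the adjusted p was below 0.05. H19 stayed past the threshold throughout, with 4.66 without AF mouse 1, Igf2bp3 has no point without AF mice 1 to 5, and Afp and Gpc3 never passed.

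Low values of several members met in the same AF livers. AF mouse 6 had the lowest AF value of Afp, Gpc3, H19 and Igf2bp3, and AF mouse 7 the second lowest of Afp, H19 and Igf2bp3 but 2.92 CPM of Gpc3. Over the 7 AF livers, log2 CPM of Afp and Gpc3 had a Pearson r of 0.68 (exact permutation p = 0.0952, adjusted over 3 pairs 0.143) and a Spearman rho of 0.86 (p = 0.0238, adjusted 0.0714). Without AF mice 6 and 7, r was 0.97. For Afp and H19, r was 0.81 (exact permutation p = 0.0306, adjusted 0.0917) and rho 0.57 (p = 0.200, adjusted 0.300), and r fell to 0.08 without the same livers, so this relation rests on them. For Gpc3 and H19, r was 0.39 (exact permutation p = 0.386, adjusted 0.386) and rho 0.46 (p = 0.302, adjusted 0.302), with r = 0.23 without AF mice 4 and 6. None of the 3 pairs passed after adjustment.

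Genes most like each member over the 7 AF livers were taken from 14160 genes by Pearson r of log2 CPM, as a description. For Afp these were Dtl (r = 0.99), Rbmx (0.99) and Klhl13 (0.99). For Gpc3 they were Dixdc1 (r = 0.97), Dusp14 (0.97) and D430019H16Rik (0.97). For H19, which was added after its values were seen because AF mouse 6 had fewer than 10 reads, they were Fblim1 (0.99), Plat (0.99) and Grk5 (0.99). With 7 livers and this many genes, high values of r occur for many patterns.

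Promoter sequences were found in RefSeq for 5 members (Afp, Gpc3, Igf2, Dlk1 and Igf2bp3). The 250 bases before the RefSeq start are shown for Afp and Gpc3, whose levels ran in a similar order across AF livers, and for Igf2bp3, which passed the test, 5′ to 3′ on the gene's strand (GRCm38.p6). Capitals mark matches, on either strand, to the TATA box TATAAA, to GTTAAT, which forms part of a binding site of the liver factor HNF1, to the E-box motif CACGTG, and to the GC box motif GGGCGG.
Afp, chr5:90490464-90490713, plus strand: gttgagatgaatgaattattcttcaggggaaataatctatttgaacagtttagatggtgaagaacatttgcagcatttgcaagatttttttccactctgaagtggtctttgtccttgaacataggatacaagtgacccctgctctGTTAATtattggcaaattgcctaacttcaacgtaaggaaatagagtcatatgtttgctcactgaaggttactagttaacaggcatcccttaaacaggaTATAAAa
Gpc3, chrX:52613975-52614224, minus strand: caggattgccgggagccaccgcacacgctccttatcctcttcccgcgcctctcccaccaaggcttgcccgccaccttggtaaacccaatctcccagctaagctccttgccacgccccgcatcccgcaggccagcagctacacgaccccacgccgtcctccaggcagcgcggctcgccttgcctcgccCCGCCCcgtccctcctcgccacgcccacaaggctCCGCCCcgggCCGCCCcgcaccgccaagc
Igf2bp3, chr6:49214955-49215204, minus strand: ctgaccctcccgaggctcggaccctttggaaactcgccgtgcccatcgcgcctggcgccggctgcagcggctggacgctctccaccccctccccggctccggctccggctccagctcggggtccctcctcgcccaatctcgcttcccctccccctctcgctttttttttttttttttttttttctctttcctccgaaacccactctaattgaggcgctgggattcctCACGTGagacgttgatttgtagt
The Afp window had TATAAA 7 bases and GTTAAT 105 bases before the RefSeq start, which lies 23 bases upstream of the GENCODE start, and a GC content of 36.0%. The Gpc3 window held 3 GC boxes, 63, 29 and 19 bases before the start, at a GC content of 71.6%, and the Igf2bp3 window held CACGTG 23 bases before the start at 60.4%. Among 32851 promoter windows of this length, 12.4% held TATAAA, 6.43% GTTAAT, 6.02% CACGTG and 32.7% GGGCGG. Afp and Gpc3 shared none of these motifs in these windows. Matches are descriptions and not evidence of binding.

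Lists of related genes were compared in the same test, and their counts are to be read against the 22.0% of all genes that were higher and the 17.8% that were lower. Nothing particular to a list is drawn from them. Of the 9 regulators of Afp, 2 were lower in AF livers, a share near that of all genes, and none was higher (median log2 fold change -0.40, against 0.04 over all genes tested). Zbtb20, a repressor of Afp, fell from 138.7 ± 16.1 to 84.2 ± 16.5 CPM (log2 fold change -0.72, edgeR adjusted p = 0.00126), although on library totals it missed the threshold (-0.36, adjusted p = 0.0792). Nr5a2, a nuclear receptor that activates Afp, fell from 99.1 ± 6.65 to 61.4 ± 5.64 CPM (log2 fold change -0.69, adjusted p = 7.5e-05). Zhx2 had 18.4 ± 0.969 and 17.2 ± 4.65 CPM (-0.09, adjusted p = 0.667). In AF mice 6 and 7, the livers with the least Afp, Zhx2 was at 26.3 and 18.9 CPM and Zbtb20 at 77.9 and 68.1 CPM, so Zhx2 was highest in AF mouse 6 and Zbtb20 lowest in AF mouse 7. The 9 regulators together, activators among them, also summed highest in AF mouse 6, at 1405 CPM against 714 to 1027 CPM in the other AF livers. A relation of these regulators to Afp was not tested.

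In the cluster of albumin-like genes beside Afp, 1 of 4 genes passed the test. Afamin (Afm), which carries vitamin E, fell from 268 ± 41.4 to 103 ± 37.0 CPM (log2 fold change -1.38, edgeR adjusted p = 0.00091). Alb (-0.60, adjusted p = 0.164) and Gc, the vitamin D carrier (-0.13, adjusted p = 0.646), did not pass. In DESeq2, Alb did pass (-0.62, adjusted p = 0.0077).

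Among 7 genes of the IGF2 mRNA-binding proteins and the LIN28 axis, 3 could be tested and were higher in AF livers, of which Igf2bp3 was testable only because of its AF reads. Igf2bp2, the paralog of Igf2bp3, rose from 1.91 ± 0.374 to 9.23 ± 2.82 CPM (log2 fold change 2.28, edgeR adjusted p = 3.9e-05), and its lowest AF liver, at 4.77 CPM, was above the highest PF liver at 2.26 CPM. Hmga1, a chromatin protein, rose from 1.98 ± 0.610 to 4.11 ± 0.479 CPM (log2 fold change 1.05, adjusted p = 0.00121). Igf2bp1 had 1 read in PF and 3 in AF livers, and Lin28b, which blocks the maturation of let-7 microRNAs, had none. Its paralog Lin28a, which was not tested, had 49 reads in PF and 32 in AF livers (0.461 ± 0.608 and 0.148 ± 0.135 CPM).

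Of 13 IGF ligands, receptors and binding proteins, 11 could be tested, of which 4 were higher and 3 lower (median log2 fold change 0.57). Igf1, the main IGF of adult liver, fell from 575 ± 32.1 to 333 ± 83.1 CPM (log2 fold change -0.79, edgeR adjusted p = 0.00201). Igfbp3, the main carrier of circulating IGF, rose from 16.9 ± 4.75 to 35.6 ± 8.30 CPM (1.08, adjusted p = 0.00127), and Igfals, its partner in that complex, fell (-1.07, adjusted p = 0.0096). Igf2r, which clears IGF2, rose from 56.5 ± 6.66 to 83.9 ± 16.8 CPM (0.57, adjusted p = 0.0065), and its antisense transcript Airn, which reached the filter's minimum in 3 of 5 PF libraries and was tested through AF livers, also rose (1.66, adjusted p = 0.0022). Airn overlaps Igf2r, so reads of the pair could be mixed. Among the other calls, Igfbp2 was lost without any of PF mice 3, 4 and 5 and AF mice 1, 2, 6 and 7 (adjusted p of 0.0536 to 0.0926), and Insr on library totals (-0.15, adjusted p = 0.204).

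The imprinted gene network has 19 genes here, 15 of them tested, and 9 were higher and 1 lower in AF livers (median log2 fold change 1.03). H19, Ndn, Cdkn1c and Airn among the higher genes, and Plagl1, which did not pass, reached the filter's minimum in 0 to 4 of 5 PF libraries and were tested through AF livers, so this count and median are no support for a rise of the list. Besides H19, Igf2r and Airn, the higher genes were Mest, Cdkn1c, Grb10, Ndn, Peg10 and Sgce. Ndn lost its call without the count filter and without any of PF mice 2, 3 and 5 and AF mice 2, 3 and 5 (adjusted p of 0.0511 to 0.0690), and Peg10 in limma-voom (adjusted p = 0.0525). Grb10, an adaptor that restrains insulin and IGF1 receptors, rose from 4.18 ± 0.607 to 10.2 ± 5.39 CPM (log2 fold change 1.28, edgeR adjusted p = 0.0095). Mest rose from 2.73 ± 0.695 to 5.56 ± 1.85 CPM (1.03, adjusted p = 0.0084). Slc38a4, an amino acid transporter, fell from 1615 ± 107.6 to 786 ± 150.3 CPM (-1.04, adjusted p = 0.00025). Meg3 and Rian, the maternally expressed RNAs of the Dlk1 domain, did not pass the test (log2 fold changes 0.70 and 1.07, adjusted p = 0.403 and 0.173), with the highest level of each in AF mouse 1 (6.95 and 15.5 CPM) and the lowest in AF mouse 7 (0.176 and 0.457 CPM). Without AF mouse 1 the log2 fold change of Meg3 was 0.09, and without AF mouse 7 Rian passed (1.28, adjusted p = 0.0424). Rian also passed with the replicate number as a block (1.43, edgeR adjusted p = 0.0055), although the numbers do not pair the samples. The block fit leaves out AF mice 6 and 7, so it is not separate from the fit without AF mouse 7.

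Glypicans split by gene. Gpc1 rose from 2.42 ± 1.01 to 7.92 ± 3.93 CPM (log2 fold change 1.72, edgeR adjusted p = 0.0032). Gpc4, the most abundant glypican measured per kb of exon, fell from 63.2 ± 5.45 to 39.2 ± 6.28 CPM (-0.69, adjusted p = 0.00068). Gpc3 and Gpc6 did not pass (Gpc6 log2 fold change 0.70, adjusted p = 0.182).

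Of 11 genes for fetal isoenzymes and hepatoblast proteins, 10 were tested, of which 6 were higher and 1 lower (median log2 fold change 0.90). Among those not called, Igdcc4 reached the filter's minimum in 1 PF library and was tested through AF livers. Sox4, a transcription factor of embryonic liver and bile ducts, rose from 1.50 ± 0.442 to 13.7 ± 13.1 CPM (log2 fold change 3.18, edgeR adjusted p = 0.0019), with 41.1 CPM in the highest AF liver. The isoenzymes Aldoa (0.98, adjusted p = 3.2e-05) and Pkm (1.33, adjusted p = 0.0028) rose, and Aldoc fell from 16.3 ± 5.81 to 2.90 ± 0.738 CPM (-2.48, adjusted p = 7.5e-06). Hk2, Pygb and Slc2a1 made up the other higher genes. Hk2 lost its call in limma-voom and without any of PF mice 1, 2, 4 and 5 and AF mice 1, 2 and 3 (adjusted p of 0.0561 to 0.0890).

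**Figure D3:**
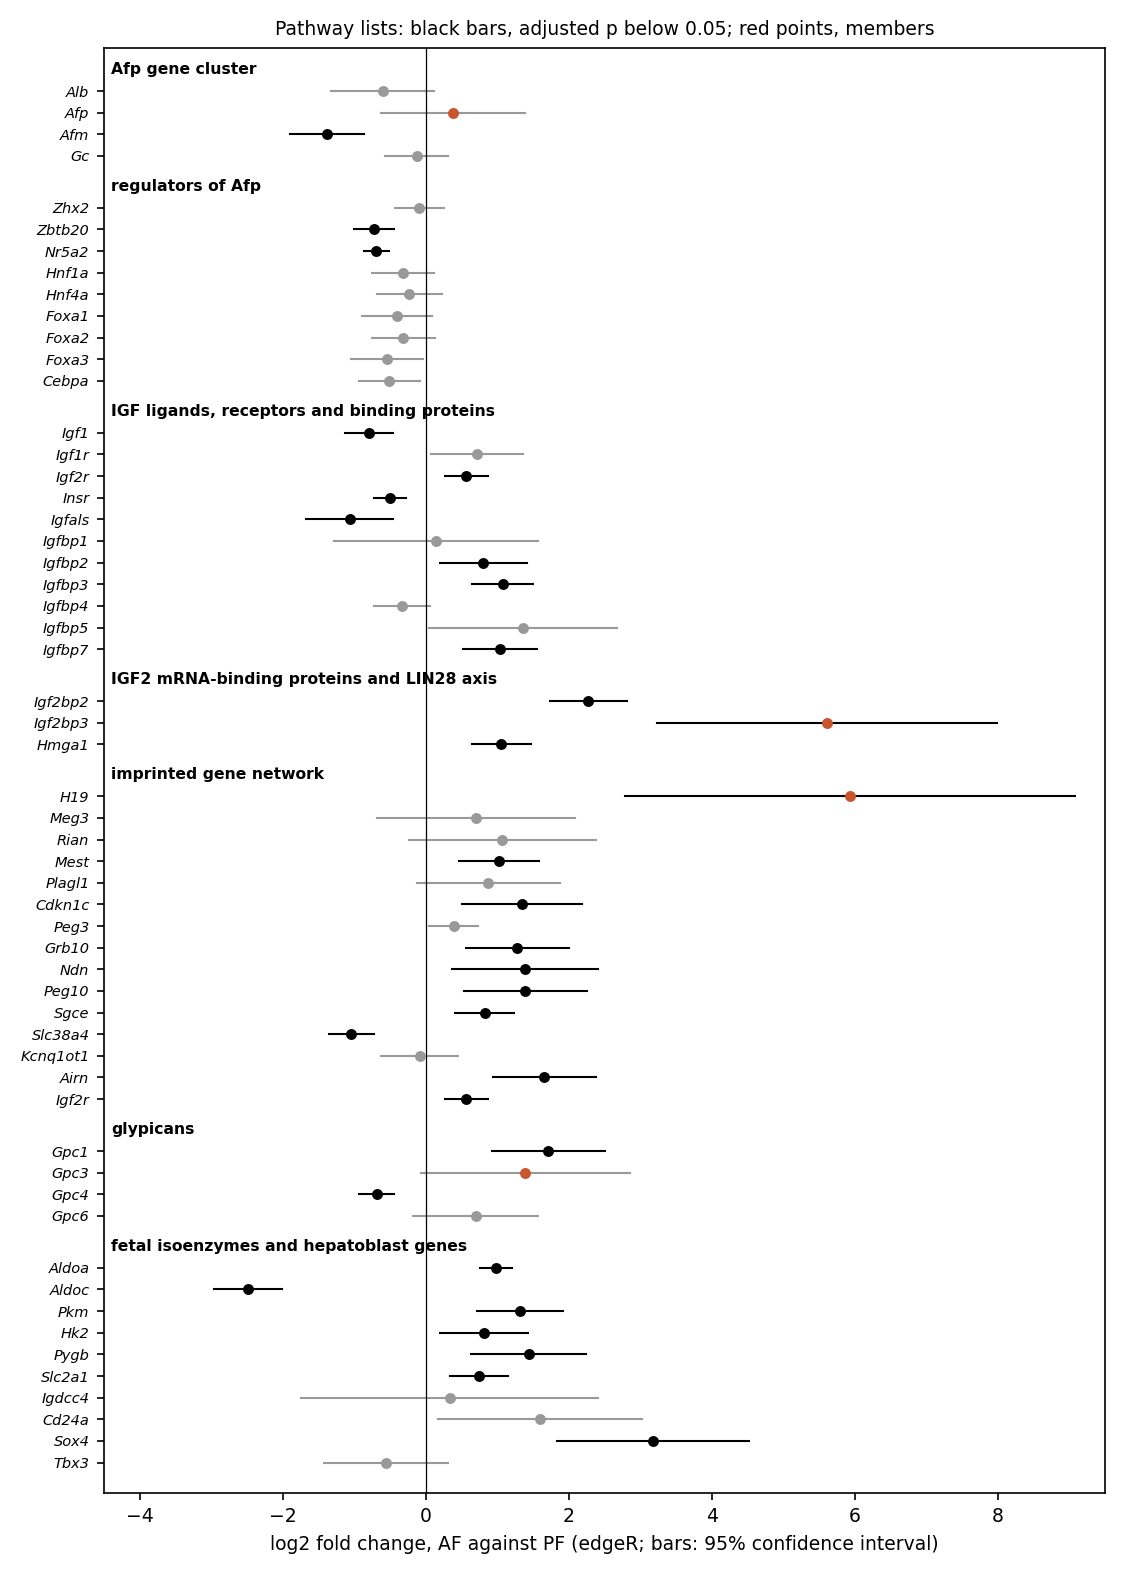
Log2 fold change of AF against PF (x axis) with its 95% confidence interval for each tested gene of the 7 lists, in black where the adjusted p was below 0.05 and grey otherwise, with red points for the members. H19 (5.94) and Igf2bp3 (5.61, a fitted value that depends on the prior count) have the widest intervals past the threshold, and Aldoc (-2.48) is the lowest value.

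**Figure D4:**
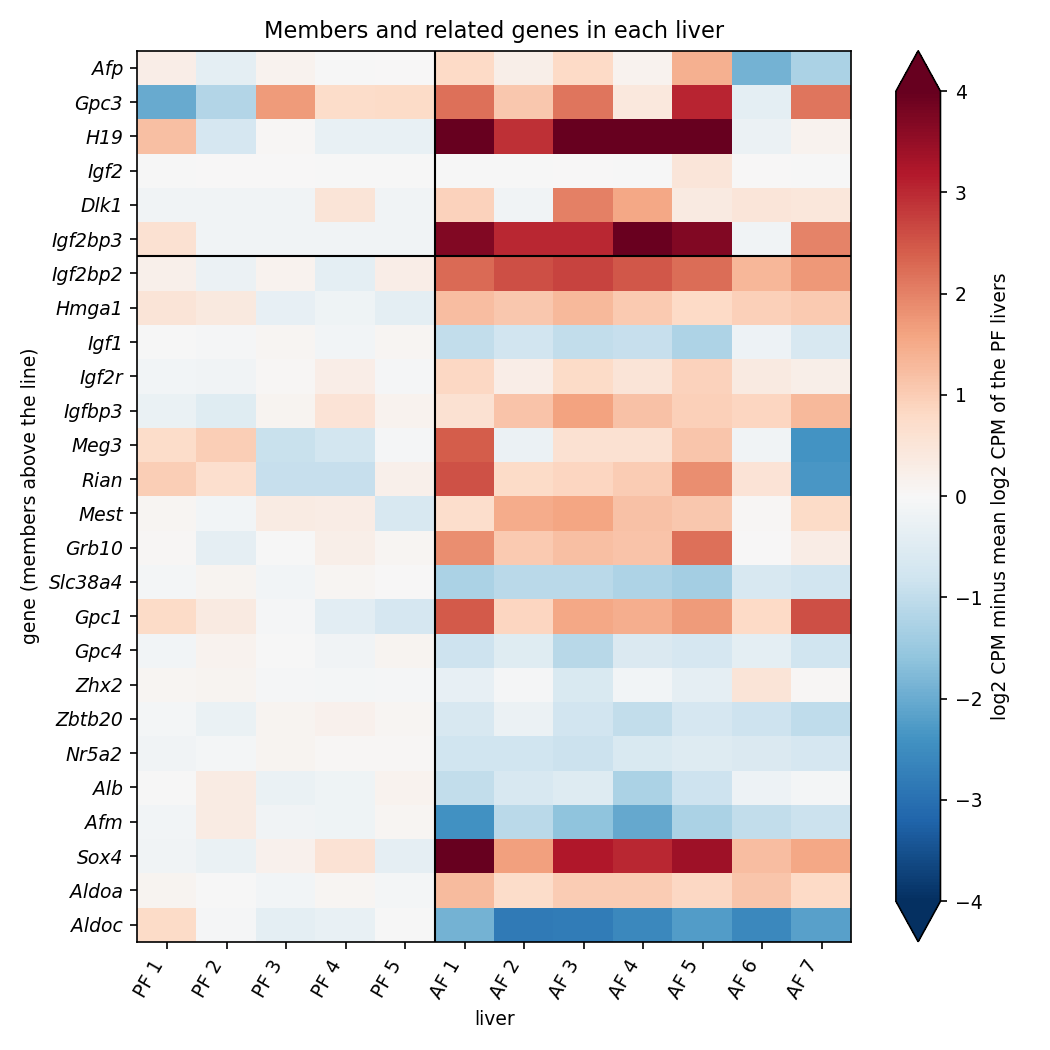
Log2 CPM of members (above the line) and related genes (below it) in each liver minus the mean log2 CPM of the PF livers, as colour between -4 and 4. Igf2bp2 is above the PF livers in all 7 AF livers, whereas H19 is not in AF mice 6 and 7 and Afp is lower there.

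Several marker lists of other cell types held genes that differed between the groups. Their counts are to be read against the 22.0% of all tested genes that were higher and the 17.8% that were lower. Of 8 bile duct markers, 7 were tested and 5 were higher, of which Krt19, Krt7 and Krt23 were tested through AF livers. Without Spp1, which also has other sources, did not pass (edgeR adjusted p = 0.0635) and had 46.4 to 239 CPM in PF and 64.9 to 1048 CPM in AF livers, the list summed to 11.99 to 16.5 CPM in PF and 13.4 to 88.4 CPM in AF livers. Stellate and myofibroblast markers passed for 8 of 10, at 71.8 to 172 and 144 to 620 CPM, and proliferation markers for 8 of 10, at 17.5 to 75.6 and 24.0 to 213 CPM, and of these Timp1, Plk1 and Cdc20 reached the filter's minimum in 1 to 3 of 5 PF libraries and were tested through AF livers. All 6 macrophage markers were higher, at 688 to 912 and 1044 to 2671 CPM. In AF mice 6 and 7, bile duct markers without Spp1 summed to 13.4 CPM, inside the PF range, and 20.3 CPM, above it, with Krt23 at 1.42 and 5.63 CPM above its highest PF liver (0.590 CPM) in both. Proliferation markers summed to 24.0 and 31.8 CPM and hepatocyte markers to 108600 and 118300 CPM, each inside the PF range. The upper end of that range for proliferation was PF mouse 1 alone (75.6 CPM), and without it the PF livers reached 27.96 CPM, below AF mouse 7. Macrophage markers in these livers summed to 1173 and 1639 CPM, above every PF liver, and stellate markers to 144 CPM, inside the PF range, in AF mouse 6 and 253 CPM, above it, in AF mouse 7. AF mouse 1, with the most H19, had the highest sum of bile duct markers without Spp1, 88.4 CPM, and of stellate markers, 620 CPM. The next highest bile duct sum, 68.3 CPM, was in AF mouse 5, with 9.89 CPM of H19. AF mouse 4, next highest in H19 at 29.4 CPM, had a bile duct sum of 28.9 CPM. Hepatocyte markers were lower for 4 of 12 genes (Apoa1, Cps1, Tat and Tdo2). Of 11 erythroid markers, 6 were tested and 2 were lower (Alas2 and Klf1), with a list median of 0.82 on the log2 scale. The 4 adult globin genes Hba-a1, Hba-a2, Hbb-bs and Hbb-bt, which are near-identical copies in pairs and uncertain for that reason, had log2 fold changes of 0.81 to 1.02 and did not pass (edgeR adjusted p of 0.0879 to 0.113), and the embryonic globins Hbb-y and Hbb-bh1 had no reads. Pancreas markers summed to at most 0.591 CPM. The part of these cell types in the values of the members was not tested.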

How the data were processed

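The authors sequenced poly(A)-selected whole liver RNA of 5 PF and 7 AF mice with a stranded kit and, per the labels, used FastQC 0.10.1, TopHat2 2.0.13 (GRCm38) and HTSeq 0.10.0. They deposited raw read counts per Ensembl gene. The annotation and strand setting of the counting are not given in the sources used here. GENCODE M21 named 54165 of 54232 IDs. The study's Cuffdiff comparison was not used here. The count columns were assigned by group and replicate number.

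Repeated material was looked for in 31 within-group pairs of libraries (lowest chi-square per degree of freedom 19.4). Counts were scaled by TMM, filtered by filterByExpr (14168 genes) and compared with edgeR 4.0.16 (quasi-likelihood, Benjamini-Hochberg, threshold 0.05) in R 4.3.3. For single members, an exact two-sided permutation test of log2 CPM (prior count 2) was used, whose smallest p is 0.00126. Its p-values for the 6 members are not adjusted. For members with 1 to 3 PF reads, the ratio of summed reads has an exact binomial 95% interval. These intervals cover counting error only. The labels number the replicates without naming animals, and the column headers hold a further number per library whose meaning the sources used here do not give, so p-values measure the spread between libraries.

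Alternatives were RLE factors, library totals, DESeq2 1.42.0, limma-voom (limma 3.58.1), 2 other count filters, prior counts of 0.5 and 5, the replicate number as a block, and each library left out. The steps were tested on simulated data. Named were the 6 members, genes of the cell-type marker lists, and genes of 7 related lists past the threshold or with a role described. For each member with at least 10 reads in every AF liver, the 3 genes most like it were also named. A gene of these lists is not reported here. The members and lists were chosen with earlier results of these data known.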

Additional observations from a re-analysis of the deposited data

Results flagged for a closer look

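In 5 of 11 groups of values, 1 liver stood apart from the others of its group by Dixon's criterion. For values with a normal distribution, chance meets it in about 1 group in 20. The criterion was applied to CPM without a log scale, on which H19 is skewed, so this rate is no guide for H19. The rate also does not apply where 1 liver has a single read and the others have 0, which meets the criterion by construction. For H19, AF mouse 1 had 126 CPM, against 29.4 CPM in the next AF liver, and PF mouse 1 had 1.03 CPM, against 0.417 CPM in the next PF liver. In log2 CPM, AF mouse 1 was at 6.98, the next AF liver at 4.88 and the lowest at -1.30. PF mouse 1 was at 0.145, the next PF liver at -1.03 and the lowest at -1.73. The criterion was not applied on that scale. The other groups rested on single reads. Igf2 had 0.0285 CPM in AF mouse 5, Dlk1 had 0.0393 CPM in PF mouse 4 and Igf2bp3 had 0.0492 CPM in PF mouse 1, and all other livers of those groups had 0 reads.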

How the results depend on the processing

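H19 and Igf2bp3 stayed higher in AF livers under every alternative that could be run. H19 ranged from 4.21 to 6.52 on the log2 scale and lost its call in limma-voom alone (4.21, adjusted p = 0.227; 1.9e-06 to 0.227 over all its alternatives), and the cause was not tested. Igf2bp3 ranged from 3.99 to 7.22 with adjusted p of 1.6e-05 to 0.0153. The upper end is the fit without PF mouse 1, where the other PF livers had 0 reads, so it is no measured fold change. Of the 6 members, 1 passed with limma-voom, and 1 to 2 passed when a library was left out, with 1 in the fits without AF mouse 1, 2, 3, 4 or 5, where Igf2bp3 failed the filter on low counts. Gpc3 ranged from 1.06 to 1.97 (adjusted p of 0.051 to 0.219) and never passed. Afp ranged from 0.08 to 0.82 (adjusted p of 0.0349 to 0.916) and passed only with the replicate block, at 0.70 (adjusted p = 0.0349), where AF mice 6 and 7, whose numbers no PF mouse shares, do not enter. Same-numbered libraries were not paired by the labels, and their deviations correlated at -0.0749 to 0.117, so the numbers do not pair the samples. Under the replicate block 6256 of 13984 genes passed, against 5635 of 14168. Igf2 (fitted log2 fold change 1.01, adjusted p = 0.506) and Dlk1 (2.77, adjusted p = 0.0753) could be tested in edgeR only without the filter. The Igf2 value is fitted to 1 AF read against 0 PF reads, so it is no measured fold change. Dlk1 passed the exact permutation test with a prior count of 0.5 reads (difference 1.68, unadjusted p = 0.0391). For 51 other genes of the lists, 910 of 969 values kept their side of the threshold, 25 lost and 34 gained a call, and 0 reversed. Depth limits Igf2, Dlk1 and Igf2bp3, which had 0 to 1 PF reads.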
